A study of Brachypodium distachyon with 9 samples.

Results

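Transcript abundance was compared between gf14h-1 and wild type shoots of the grass Brachypodium distachyon at the end of a drought. The comparison used 6 of the 9 libraries of the study, the 3 of gf14h-1 against the 3 of wild type. All 28607 features of the count table entered, each a gene or a non-coding transcript of the RefSeq annotation, and 23898 passed the filter on low counts. All groups were whole aboveground shoots of cultivar 21-3 at the 5-leaf stage, which grew with water for 18 days and then without it for 15 days. Wild type carried no edit. The mutant gf14h-1 is homozygous for a CRISPR/Cas9 edit in exon 1 of GF14h that creates a premature stop codon. The mutant hdac19-2b, homozygous for such an edit in HISTONE DEACETYLASE 19, entered the fit for its spread. Each mutant is a single allele, and every group was droughted, so no watered control bears on these values.

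The 14-3-3 proteins are small acidic dimers that bind phosphorylated serine or threonine motifs on client proteins and alter the activity, stability or location of those clients. In plants their clients include protein kinases, ion pumps, metabolic enzymes and transcription factors, among them components of abscisic acid signalling and of the complexes that time flowering in grasses. GF14h belongs to the epsilon clade of the family, per the title of the series. At issue was which transcripts change in level when GF14h is lost under drought. GF14h was not paired with a locus in the annotation used, and none of its features was described as a 14-3-3 protein, so the transcript of the targeted gene and its relatives were not analysed here. A stop codon edit need not alter the level of the transcript that carries it.

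Depth and the spread within the mutant group frame every result. The gf14h-1 libraries held 17653802, 15182384 and 3302835 counts in replicates 1, 2 and 3, against 12041696 to 36632994 in wild type. Replicate 3 was the shallowest of all 9 libraries. By library totals, 3 counts in it correspond to 0.908 CPM, a count scaled to a common library size, against 0.0819 to 0.269 CPM elsewhere. On the TMM-scaled levels given below, 3 counts in replicate 3 stand at 1.06 CPM. Replicate 1 was deep, but it detected 24218 features with at least 1 count, where replicate 2 detected 26238 from fewer counts. After thinning every library to the depth of replicate 3, features detected were 23425, 24637 and 23016 in gf14h-1 replicates 1, 2 and 3 and 24607 to 25115 in the other 6 libraries. Features at 0 counts that reached at least 1 CPM in each of the other 8 libraries numbered 76 in gf14h-1 replicate 1, 172 in replicate 3 and at most 5 in any other library. The first principal component, with 28.1% of the variance, set replicate 3 apart, and the second, with 19.0%, set replicate 1 apart. The mean variance of log2 CPM was 1.07 among the gf14h-1 libraries and 0.432 among the wild type ones. Over the 19312 features that passed the filter both before and after thinning, the variances were 0.719 and 0.247 at full depth and 0.531 and 0.231 at equal depth, with gf14h-1 above wild type each time. Limma-voom's library quality weights were 0.519, 1.16 and 0.512 for gf14h-1 replicates 1, 2 and 3 and 0.885 to 1.98 for the others. Ribosomal RNA features took 1.06% of the counts in gf14h-1 replicate 3 and 0.424% to 0.841% in the other libraries.

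**Figure D1:**
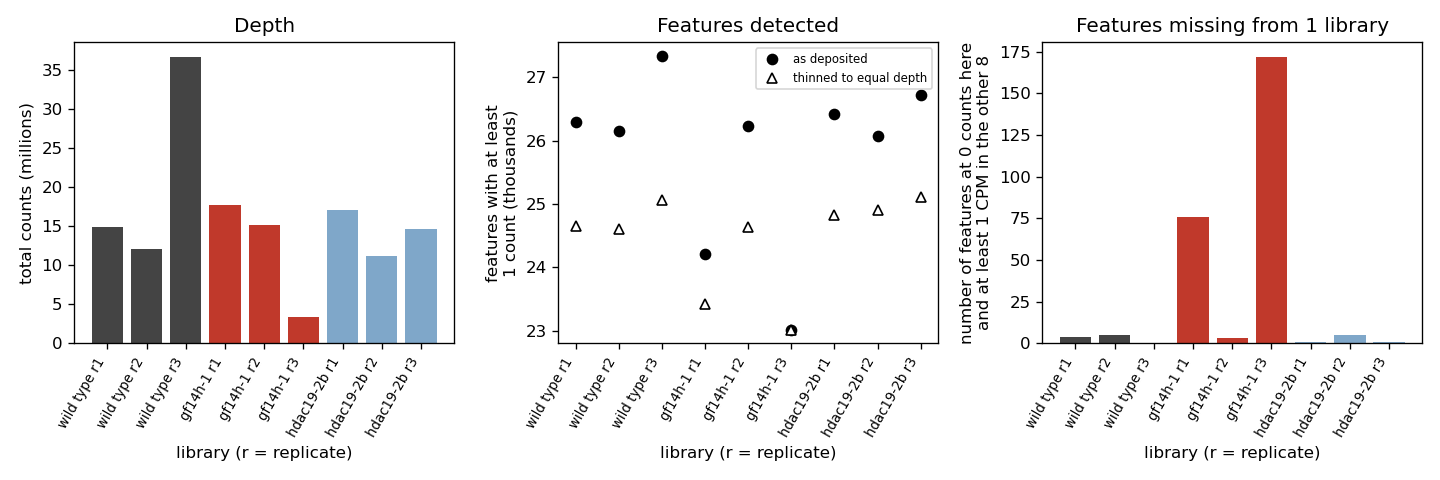
Total counts (left, on a scale of 1e6 counts), features with at least 1 count (middle, on a scale of 1e3, as deposited and thinned to equal depth) and features missing from a single library (right) for the 9 libraries, with wild type in grey, gf14h-1 in red and hdac19-2b in blue. The gf14h-1 replicate 3 bar is the lowest for depth at 3302835 counts, and gf14h-1 replicates 1 and 3 lack 76 and 172 features that the other libraries hold.

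Of the 76 features missing from gf14h-1 replicate 1, none reached 5 CPM in each of the other 8 libraries, while 11 of the 172 missing from replicate 3 did. Among transcripts with a median of at least 10 CPM, some were at or near 0 in gf14h-1 replicate 1. LOC100829501, a protein-coding locus of chromosome 3, had 0 counts in gf14h-1 replicate 1, where the median of the other 8 libraries gave an expectation of 847 counts. It stood at 54.4 and 72.0 CPM in gf14h-1 replicates 2 and 3, but it also ranged from 5.5 to 91.1 CPM among the wild type libraries and was at 2.43 CPM in hdac19-2b replicate 1. LOC100830320 on chromosome 2 had 0.268 CPM in gf14h-1 replicate 1, against 18.2 and 12.7 CPM in replicates 2 and 3 and 14.8, 17.1 and 16.7 CPM in wild type. For this locus replicate 1 alone was far from wild type, and the other mutant libraries lay just above and just below it. In gf14h-1 replicate 1 the locus LOC100839782 on chromosome 5 was far above the rest, at 116.8 CPM, against 31.5 and 39.9 CPM in replicates 2 and 3 and 13 to 15.6 CPM in wild type. In gf14h-1 replicate 3 the features farthest above the other libraries included the ribosomal RNA features LOC112269616 and LOC112269618. Whether the plants or the libraries of these replicates differed was not tested.

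Against this background, the quasi-likelihood test of edgeR, adjusted after Benjamini and Hochberg, called 35 of 23898 features at an adjusted p under 0.05, which is 0.146% of the features tested. Of these, 16 were higher in gf14h-1 (0.067%) and 19 were lower (0.0795%). An unadjusted p under 0.05 was reached by 1807 features, or 7.56%, of which 815 were higher (3.41%) and 992 lower (4.15%). In all 35 called features, each of the 3 mutant libraries lay more than 2-fold from the wild type mean on the log2(CPM + 0.5) scale. Groups without overlap were found in 11.9% of all tested features, 5.18% with the mutant higher and 6.68% with it lower. By annotated type, 30 belonged to protein-coding genes, 4 were long non-coding RNAs and 1 was a pseudogene. None of the 35 carries a gene name or a description beyond its locus number in the annotation, so no role is given for them. In bulk shoots, fewer cells of a type and less RNA per cell cannot be told apart.

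**Figure D2:**
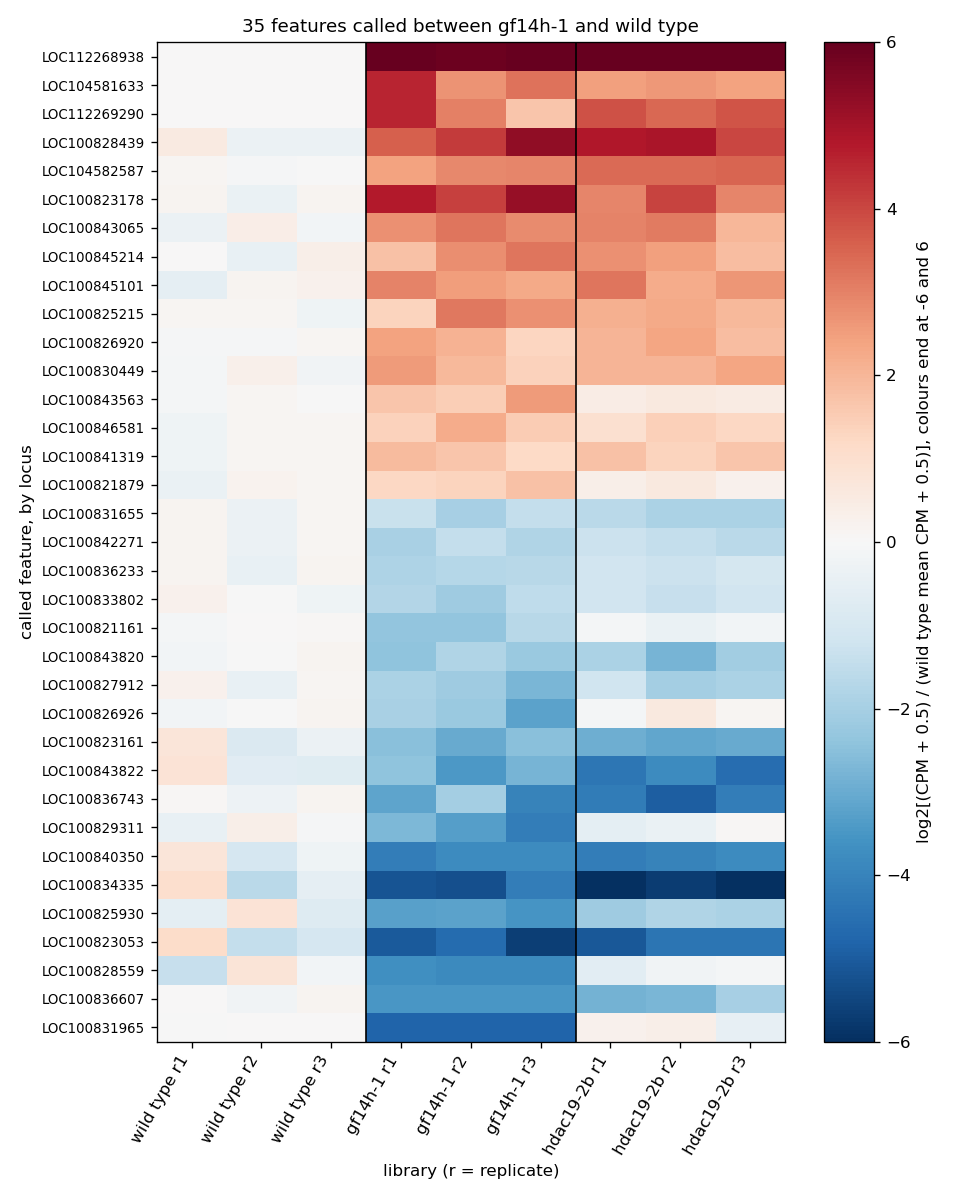
Heat map of the 35 called features (vertical, by locus) in the 9 libraries (horizontal), coloured by log2 of (CPM + 0.5) over the wild type mean CPM + 0.5, with colours ending at -6 and 6. All 3 gf14h-1 libraries share 1 direction at each feature, with 16 features above wild type and 19 below.

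The calls differed in how far they rested on the deviating libraries. Without gf14h-1 replicate 1 the test called 20 features (0.0812%) and without replicate 3 it called 51 (0.206%), and 15 and 27 of the 35 were among them. The calls made under both omissions numbered 13, of which 8 were higher and 5 lower. With gf14h-1 replicate 2 alone standing for the mutant, and assumed to vary like the other groups, all 35 log2 fold changes had the same sign. Replicate 2 was among the libraries that chose the 35, and it lay more than 2-fold from the wild type mean in each. That sign was therefore fixed by the selection. A set of 9, 7 higher and 2 lower, passed the threshold without replicate 1, without replicate 3 and with replicate 2 alone. Limiting the fit to the 6 libraries of the comparison left 4 calls (0.0176%), all among the 35, namely LOC112268938, LOC100823178, LOC100843065 and LOC100831965. A different set of 4, LOC112268938, LOC100823178, LOC100840350 and LOC100831965, was called whichever of the 9 libraries was left out. The calls fell to 8 (0.0323%), 12 (0.0484%) or 4 (0.0162%) upon omission of wild type replicate 1, 2 or 3, and to 16 (0.0647%) upon omission of gf14h-1 replicate 2. They fell to 7 (0.0284%), 9 (0.0365%) or 6 (0.0243%) upon omission of an hdac19-2b library, in the order of the replicates. The DESeq2 Wald test called 357 features (1.49%), all of the 35 among them, limma-trend 39 (0.163%) and limma-voom with library quality weights 16 (0.067%).

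**Figure D3:**
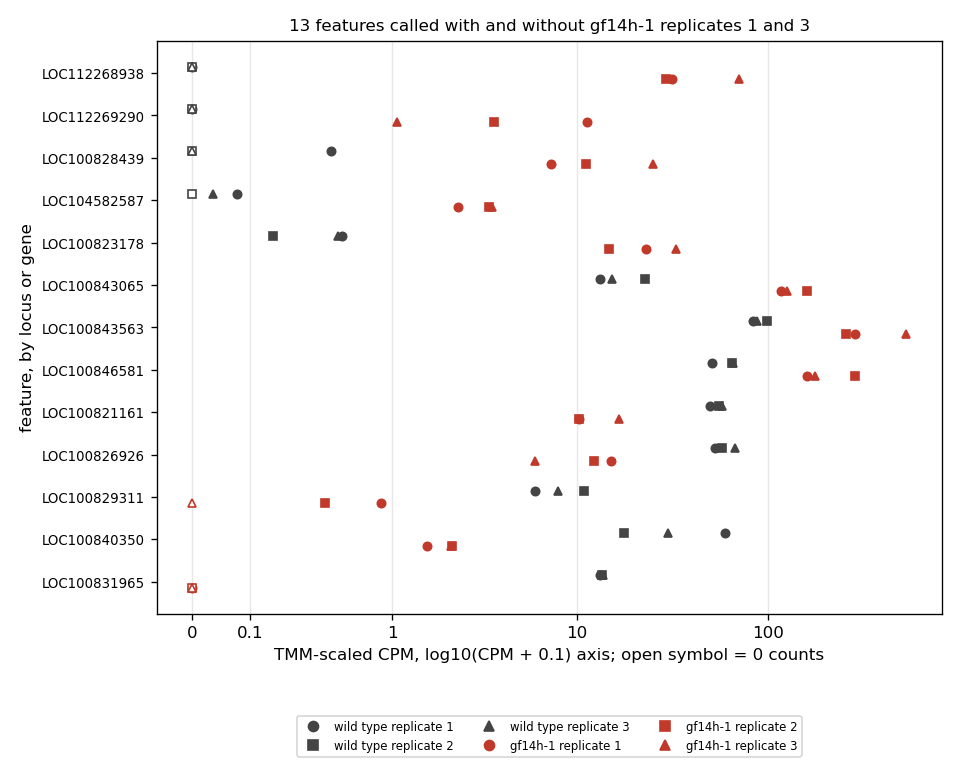
TMM-scaled CPM (horizontal, log10 of CPM + 0.1) in the 3 wild type libraries (grey) and the 3 gf14h-1 libraries (red) for the 13 features called with all libraries, without gf14h-1 replicate 1 and without gf14h-1 replicate 3. Symbols mark the replicate and open symbols mark 0 counts. The mutant libraries lie to the right of wild type in 8 features and to the left in 5, with no overlap.

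The clearest loss of a transcript was at LOC100831965, a protein-coding locus on the plus strand of chromosome 3 (24296889 to 24305070, assembly Brachypodium_distachyon_v3.0). Wild type libraries stood at 13.1, 13.5 and 13.6 CPM, and every gf14h-1 library had 0 counts. The wild type values were close together, and the mutant was at least 165.2-fold lower, taken against 3 counts over the summed mutant libraries. At the depth of replicate 3 the wild type mean corresponds to 38.1 counts. The log2 fold change was −10.74 (SE 0.73), with an edgeR adjusted p of 0.00255. With 0 counts in the mutant, the log2 fold change and its SE depend on the prior count, so only the 165.2-fold bound describes its size. Both alternatives that lost the call were limma-voom fits with library quality weights (adjusted p 0.125 with 9 libraries and 0.0633 with 6). In hdac19-2b the locus stood at 15.9, 17.4 and 9.26 CPM, which overlapped wild type. The same test set gf14h-1 apart from hdac19-2b at this locus (log2 difference −10.82, SE 0.73, edgeR adjusted p 0.0016). That difference and its SE also depend on the prior count.

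A second protein-coding locus, LOC100836607 on chromosome 1 (58849201 to 58855709, minus strand), was also at 0 counts in every gf14h-1 library. Its wild type values were 5.21, 4.35 and 5.63 CPM, so the mutant was at least 64.7-fold lower. Its edgeR adjusted p was 0.0389, but the call was made in only 1 of the 9 fits that left out a library. In hdac19-2b it stood at 0.289, 0.338 and 0.888 CPM, all below wild type, with an edgeR adjusted p of 0.162.

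LOC100821161 and LOC100826926, both protein-coding loci of chromosome 5, fell in gf14h-1 from tight wild type values. LOC100821161 (13331775 to 13339322, minus strand) stood at 49.6, 55.2 and 57.5 CPM in wild type and at 10.2, 10.2 and 16.6 CPM in gf14h-1. Every mutant library was below every wild type library, with a log2 fold change of −2.18 (SE 0.24) and an edgeR adjusted p of 0.0104. LOC100826926 (16196159 to 16201127, minus strand) stood at 52.9, 57.5 and 66.5 CPM in wild type and at 15.1, 12.2 and 6.0 CPM in gf14h-1. Its groups did not overlap either, and replicate 3 was the lowest (log2 fold change −2.35, SE 0.31, edgeR adjusted p 0.0254). Leaving out wild type replicate 3 ended the call of both, with edgeR adjusted p of 0.0619 and 0.103. The call of LOC100826926 also ended without wild type replicate 1 or 2, without gf14h-1 replicate 2, and without hdac19-2b replicate 1 or 3, with edgeR adjusted p of 0.0611 to 0.107. In hdac19-2b the values were 50.1, 41.3 and 48.2 CPM for LOC100821161 and 55.0, 88.6 and 64.9 CPM for LOC100826926, near or within the wild type range. With LOC100831965 they were the 3 of the 35 at which edgeR's test separated gf14h-1 from hdac19-2b, out of 4 such features in all (0.0167%) (log2 differences −1.96 and −2.58, adjusted p 0.0313 for each).

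LOC100840350, a protein-coding locus of chromosome 4 (46817829 to 46821277, minus strand), fell with every library left out in turn. Wild type stood at 59.6, 17.5 and 29.9 CPM, and gf14h-1 at 1.56, 2.16 and 2.12 CPM. The wild type libraries were far apart, with replicate 1 the highest, while the mutant libraries were all close to 2 CPM. The log2 fold change was −4.22 (SE 0.47), with an edgeR adjusted p of 0.0104 and a highest value over its alternatives of 0.207.

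Wild type replicate 1 was the highest wild type library in 10 of the 19 lower calls. How often it was the highest over all features is not given here, so this share is not read as unusual. In 7 of the 19 the highest wild type library exceeded the lowest by more than 2-fold. LOC100834335 on chromosome 3 (40359281 to 40360482) stood at 129.6, 20.8 and 44.3 CPM in wild type and at 1.29, 1.18 and 3.18 CPM in gf14h-1. LOC100823053 on chromosome 2 (33398110 to 33399971) stood at 52.5, 8.78 and 12 CPM in wild type and at 0.268, 0.524 and 0 CPM in gf14h-1. In both loci replicate 1 was highest in wild type, and every mutant library was below every wild type library. The log2 fold changes were −5.37 (SE 0.74) and −6.13 (SE 0.89), with edgeR adjusted p of 0.0284 and 0.0335. The calls survived 2 and 1 of the 9 omissions of a library. At LOC100823161 on chromosome 2 the wild type values were 176.4, 57.5 and 83.3 CPM, and at LOC100843822 on chromosome 1 they were 327.4, 114.7 and 110.5 CPM. The mutant libraries held 12.7 to 18.3 CPM of the former and 16.6 to 34.1 CPM of the latter, again without overlap. Among the 10 higher calls with more than 1 CPM in every wild type library, none had a wild type range above 2-fold.

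The other lower calls of coding gene features had log2 fold changes of −1.58 to −2.85 and steadier wild type values. They were LOC100831655, LOC100842271, LOC100836233, LOC100833802, LOC100843820, LOC100827912 and LOC100836743. LOC100831655 on chromosome 3 stood at 173.2, 119.0 and 164.1 CPM in wild type, against 59.4, 37.6 and 55.7 CPM in gf14h-1, a log2 fold change of −1.58 (SE 0.24). LOC100833802, also on chromosome 3, went from 66.4, 56.1 and 46.2 CPM to 16.3, 12.3 and 19.4 CPM. Both loci had groups that did not overlap, and their edgeR adjusted p were 0.0389 and 0.0254. At LOC100836743 on chromosome 2, replicate 2 was the highest mutant library, with 6.76, 14.9 and 3.53 CPM in gf14h-1 against 67.6, 51.5 and 72.2 CPM in wild type. None of these 7 calls survived more than 2 of the 9 omissions of a library.

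On the higher side, LOC100823178 on chromosome 3 (37855665 to 37858947, minus strand) was a protein-coding locus close to silent in wild type, at 0.50, 0.164 and 0.476 CPM. The gf14h-1 libraries reached 23.0, 14.6 and 32.8 CPM, all far above wild type. The ratio of pooled counts was 48.2, with an exact 95% interval of 32.6 to 74.2 that covers counting error only. The log2 fold change was 5.83 (SE 0.56), with an edgeR adjusted p of 0.00406, and the call held with every library left out in turn. Limma-voom with quality weights did not call it (adjusted p 0.0913 with 9 libraries and 0.0633 with 6). LOC100843065, also on chromosome 3 (7228638 to 7230293, plus strand), rose from 13.1, 22.7 and 15.2 CPM to 115.9, 159.7 and 124.9 CPM. Here too the groups were far apart (log2 fold change 2.97, SE 0.34, edgeR adjusted p 0.0104), and the call was lost only without wild type replicate 1 or 3 (adjusted p 0.0652 and 0.0777).

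LOC100843563 and LOC100846581 were protein-coding loci with smaller rises. LOC100843563 on chromosome 2 (35485325 to 35490297) stood at 83.4, 98.2 and 87.0 CPM in wild type and at 282.3, 252.5 and 522.8 CPM in gf14h-1. LOC100846581 on chromosome 1 (20224995 to 20229784) stood at 50.6, 64.3 and 65.6 CPM in wild type and at 158.4, 281.4 and 175.7 CPM in gf14h-1. Groups did not overlap at either locus, and a different mutant library was the highest at each, replicate 3 at the former and replicate 2 at the latter. Their log2 fold changes were 1.97 (SE 0.28) and 1.77 (SE 0.26), with edgeR adjusted p of 0.033 and 0.0366. Omitting any wild type or any hdac19-2b library ended the first call (edgeR adjusted p 0.0679 to 0.171). The second call ended without any of those, or without gf14h-1 replicate 2 (edgeR adjusted p 0.0714 to 0.216).

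The remaining higher calls of coding gene features were LOC100825215, LOC100845214, LOC100826920, LOC100830449, LOC100841319 and LOC100821879. LOC100825215 on chromosome 3 showed how uneven the mutant libraries were, at 23.4, 84.3 and 61.4 CPM against 9.5, 9.6 and 7.42 CPM in wild type. LOC100830449 on chromosome 4 ran in another order, at 45.8, 29.5 and 19.8 CPM in gf14h-1 against 6.57, 9.11 and 6.13 CPM in wild type. Over the 16 higher calls, the highest mutant library was replicate 1 in 6, replicate 2 in 3 and replicate 3 in 7. The 6 loci had log2 fold changes from 1.48 to 2.85, and none of their calls survived more than 1 of the 9 omissions of a library.

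All 4 called long non-coding RNAs and the called pseudogene were higher in gf14h-1 and near or at 0 in wild type. The annotation holds 2244 tested long non-coding RNA features, of which 4 were called, all higher. That is 0.178% of them, near the 0.146% of all features. At an unadjusted p under 0.05 there were 75 with higher and 81 with lower means, 6.95% in all beside 7.56%. Their median log2 fold change was 0.08, beside −0.00 over all tested features. LOC112268938 on chromosome 1 (17317420 to 17318853, plus strand) had 0 counts in every wild type library and 31.3, 29.2 and 69.9 CPM in gf14h-1, at least 689.2-fold higher against 3 counts over the summed wild type libraries. Its edgeR adjusted p was 0.00255. It was called in 21 of 22 alternatives, the exception being limma-voom with library quality weights over 9 libraries (adjusted p 0.119). This value belongs to 1 transcript of the locus. Its other transcript, which spans the same bases, had 1.07, 0.328 and 0.644 CPM in wild type. Summed over both transcripts, the locus stood at 1.07, 0.328 and 0.644 CPM in wild type and at 31.4, 38.2 and 74.4 CPM in gf14h-1, so wild type held some RNA of it (log2 fold change 6.10, edgeR adjusted p 3.8e-04). The same sum was 89.6, 56.2 and 62.7 CPM in hdac19-2b, so the rise was not particular to gf14h-1.

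At LOC104581633, a long non-coding RNA of chromosome 1 (46687559 to 46690757, plus strand), the called transcript had 0 counts in wild type and 11.4, 2.75 and 4.23 CPM in gf14h-1. All 5 transcripts of this locus were at 0 counts in wild type. Their sum was 18.8, 6.23 and 15.2 CPM in gf14h-1 (log2 fold change 10.74, which depends on the prior count, edgeR adjusted p 0.00133). In hdac19-2b the sum was 4.74, 6.5 and 6.98 CPM. LOC104582587 on chromosome 2 (14351453 to 14353333, minus strand) had 0.0714, 0 and 0.028 CPM in wild type, against 2.31, 3.41 and 3.53 CPM in gf14h-1, a pooled ratio of 88.5 with an exact 95% interval of 23.9 to 740.1. Summed over its 2 features, this locus held 2.31, 5.9 and 6.0 CPM in gf14h-1 and 6.35, 6.08 and 6.47 CPM in hdac19-2b. LOC100828439 on chromosome 1 (6799304 to 6800048, minus strand) had 0.429, 0 and 0 CPM in wild type, against 7.24, 11.1 and 25.0 CPM in gf14h-1, a pooled ratio of 105.3 (47.9 to 288.8). At both loci each gf14h-1 library exceeded each wild type library for the called transcript, with edgeR adjusted p of 0.0203 and 0.0335. The pseudogene LOC112269290 on chromosome 5 (2549231 to 2552042, plus strand) had 0 counts in wild type and 11.2, 3.61 and 1.06 CPM in gf14h-1. Its lowest value came from the shallow replicate 3, where 1.06 CPM is the level of 3 counts, and its edgeR adjusted p was 0.0394. Whether counting used strand is not given in the sources used here, so RNA from the opposite strand of these loci cannot be told apart.

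A separate group of 4 calls lay on non-coding transcripts of protein-coding genes, and none of their genes passed when its features were summed. LOC100845101 on chromosome 3 had a transcript (18867561 to 18879815) at 2.36, 4.19 and 4.48 CPM in wild type and at 32.0, 22.9 and 19.4 CPM in gf14h-1, with a log2 fold change of 2.75 (SE 0.36, edgeR adjusted p 0.0254). The coding gene feature of the same locus ran the other way, at 18.6, 35.2 and 24.5 CPM in wild type, against 6.60, 8.59 and 12.3 CPM in gf14h-1, but did not pass (log2 fold change −1.54, edgeR adjusted p 0.839). Summed over its 3 features, the locus held 22.2, 41.4 and 33.5 CPM in wild type, against 38.6, 31.5 and 31.8 CPM in gf14h-1. The sums overlapped, with a log2 fold change of 0.08 and an edgeR adjusted p of 0.983.

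LOC100829311 on chromosome 3 showed a similar exchange among its 5 features. The called transcript (47663776 to 47673763) stood at 6.0, 10.8 and 7.90 CPM in wild type and at 0.859, 0.393 and 0 CPM in gf14h-1, with an edgeR adjusted p of 0.0425. A second non-coding transcript over the same bases stood at 0, 0.328 and 0 CPM in wild type and at 9.93, 2.75 and 6.35 CPM in gf14h-1, but it did not pass (log2 fold change 6.05, edgeR adjusted p 0.252). This second transcript was at 0 counts in every hdac19-2b library, while the called one was at 5.31, 6.16 and 8.82 CPM there. The sum over all 5 was 7.86, 12.6 and 10.9 CPM in wild type, against 13.6, 8.13 and 7.76 CPM in gf14h-1 (log2 fold change −0.06, edgeR adjusted p 0.990).

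Sums of the groups also overlapped at the other loci of this kind. At LOC100828559 on chromosome 5, the called transcript (25028160 to 25032473) stood at 2.29, 11.9 and 5.80 CPM in wild type and at 0.0537, 0 and 0 CPM in gf14h-1. Over the 10 features of that locus the sums were 14.8, 34.7 and 30.9 CPM and 27.5, 26.7 and 10.9 CPM, which overlapped (edgeR adjusted p 0.958). At LOC100825930 on chromosome 3 the called transcript fell from 3.36, 9.60 and 2.94 CPM to 0.107, 0.131 and 0 CPM, while the sums over 4 features were 7.79, 11.1 and 10.9 CPM and 9.07, 12 and 7.41 CPM (edgeR adjusted p 0.992). The deposited values are estimates, and how reads shared by overlapping transcripts were divided is not given in the sources used here. These 4 results therefore describe the estimated share of a transcript and not the output of its gene. Of the 8 called loci with more than 1 feature, the other 4 (LOC112268938, LOC104581633, LOC104582587 and LOC100843820) were still called after summing. In all, 48 genes (0.22%) were called when counts were summed per gene, 31 of them with a called feature.

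The called features were scattered. Chromosomes 1 to 5 carried 8, 7, 11, 4 and 5 of them, and the nearest pair was 234760 bases apart (LOC100828439 and LOC100843822). The 3 nearest tested features on each side of every call gave 210 neighbouring features. None was called, 18 had an unadjusted p under 0.05 (8.57%, beside 7.56% of all features), and their median log2 fold change was −0.01. LOC100834312 was the only feature of another gene that overlapped a call, LOC100823053, and it stood at 97.5 CPM in wild type, against 103.8 CPM in gf14h-1 on average.

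Omitting the shallow replicate 3 added 24 calls, 17 lower and 7 higher. In 9 of these the omitted library lay within or beyond the wild type range. LOC100846654, a protein-coding locus of chromosome 4 chosen after its values were seen, stood at 37.6, 34.5 and 42.7 CPM in wild type and at 6.39, 7.73 and 22.6 CPM in gf14h-1. Replicate 3 was the highest mutant library but remained below wild type. The edgeR adjusted p was 0.207 with replicate 3 and 0.00602 without it.

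The 35 calls can be set beside hdac19-2b, whose comparison uses the same wild type libraries, so the lists are not independent. At 33 of the 35 the difference from wild type had the same sign in hdac19-2b. The shared wild type libraries favour such a match, and its share over all features is not given here. Of the 35, 20 were also called in hdac19-2b against wild type, 12 higher and 8 lower, where 0.272% of all features were called. LOC100843065 stood at a log2 difference from wild type of 2.97 (gf14h-1) and 2.80 (hdac19-2b), and LOC100840350 at −4.22 and −4.28. LOC100843563 had 1.97 and 0.51, and LOC100821879 had 1.48 and 0.40. Direct tests of gf14h-1 against hdac19-2b did not pass for these last loci (edgeR adjusted p 0.267 and 0.297).

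Genes with a name or description were tested in 159 of 206 cases, and edgeR's test called none of them. At an unadjusted p under 0.05 there were 14 (8.81%, beside 7.56% of all features), 4 with higher and 10 with lower means in gf14h-1. Among the tools, DESeq2 called 7 and both limma-trend and limma-voom with quality weights called 0. The values below are therefore descriptions of genes that did not pass.

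**Figure D4:**
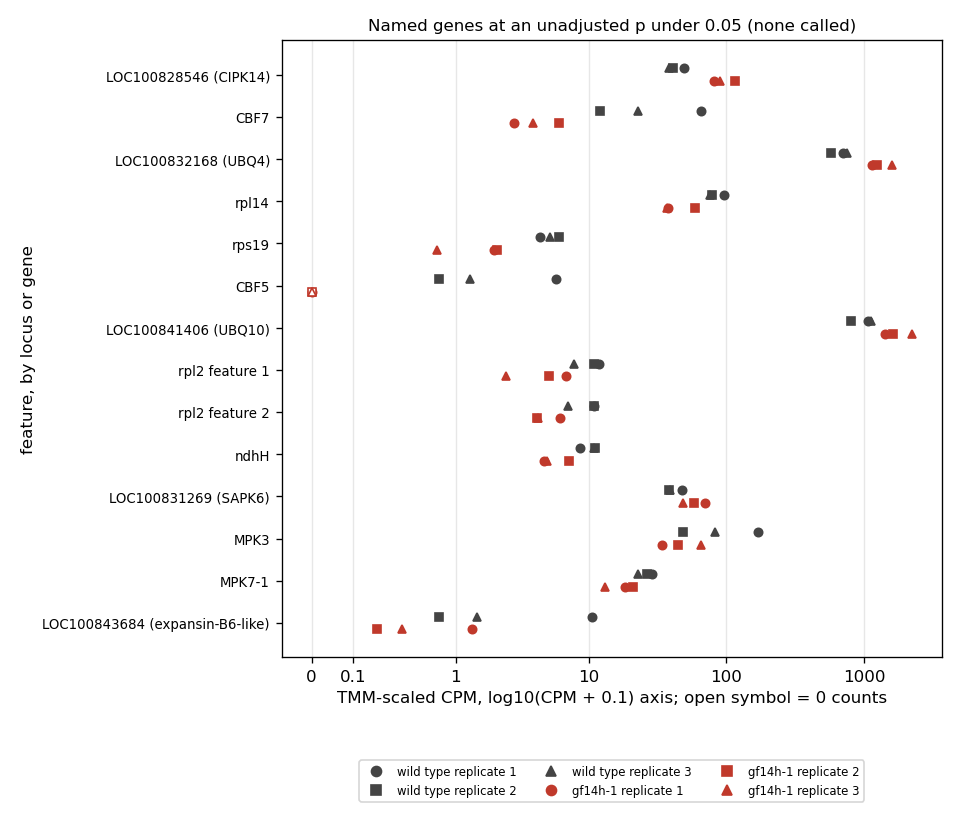
TMM-scaled CPM (horizontal, log10 of CPM + 0.1) in the wild type (grey) and gf14h-1 (red) libraries for the 14 named features with an unadjusted p under 0.05, none of which passed the adjusted threshold. The groups did not overlap in 12 of them, and overlapped in MPK3 and the expansin-B6-like gene. The choice by p favours groups without overlap, which were found in 20 of all 159 tested named features and in 11.9% of all tested features.

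Kinases of calcium and abscisic acid signalling came first. LOC100828546 (CIPK14), of the kinases that bind calcineurin B-like calcium sensors, stood at 49.6, 41.4 and 38.5 CPM in wild type and at 82.1, 115.8 and 90.0 CPM in gf14h-1. All gf14h-1 libraries were higher, and its edgeR adjusted p of 0.0762 was the lowest of any named gene, while DESeq2 gave 2.4e-06. In hdac19-2b, CIPK14 stood at 93.1 to 105.4 CPM and was called higher than wild type (log2 difference 1.2, edgeR adjusted p 0.0425). The direct test of gf14h-1 against hdac19-2b did not pass (log2 difference −0.05, edgeR adjusted p 0.975). The higher level of CIPK14 was therefore not particular to gf14h-1. The other 3 tested members of the CBL and CIPK list (CIPK15, CBL2 and CIPK2) had unadjusted p of 0.263 to 0.712. LOC100831269 (SAPK6), one of the SnRK2 kinases that act in abscisic acid and osmotic signalling, stood at 47.6, 38.6 and 39.2 CPM in wild type and at 70.3, 58.7 and 48.7 CPM in gf14h-1. Its groups were adjacent without overlap, with an edgeR adjusted p of 0.579. Of the 9 tested SnRK2 kinases it alone had an unadjusted p under 0.05, and the list's median log2 fold change was 0.18. The 3 tested protein phosphatases 2C, a family that includes the negative regulators of SnRK2 kinases, had none, with a median of −0.07.

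MAP kinases, which relay stress signals through phosphorylation cascades, held 2 of 10 tested members at an unadjusted p under 0.05, both lower. Over the list of 10, 5 log2 fold changes were positive and the median was −0.01. MPK3 stood at 169.9, 48.6 and 83.3 CPM in wild type and at 34.2, 44.7 and 66.0 CPM in gf14h-1. Its groups overlapped, since wild type replicate 2 was below gf14h-1 replicate 3. MPK7-1 stood at 28.8, 26.6 and 23.0 CPM in wild type and at 18.4, 20.9 and 13.1 CPM in gf14h-1, without overlap. The edgeR adjusted p were 0.584 and 0.607.

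Both tested C-repeat binding factors, AP2/ERF activators of cold and dehydration genes, were lower on average in gf14h-1 without passing. CBF7 stood at 65.6, 12.2 and 22.9 CPM in wild type and at 2.79, 6.03 and 3.88 CPM in gf14h-1 (log2 fold change −2.97, SE 0.61, edgeR adjusted p 0.129). CBF5 stood at 5.79, 0.739 and 1.29 CPM in wild type, and all gf14h-1 libraries had 0 counts (edgeR adjusted p 0.320). The groups did not overlap in either gene, and wild type replicate 1 was the highest library in both. DESeq2 gave adjusted p of 3.4e-04 and 0.0258. In hdac19-2b, CBF7 stood at 2.83, 2.11 and 1.21 CPM and was called lower than wild type (log2 difference −4.03, edgeR adjusted p 0.0261). CBF5 had 0 counts in every hdac19-2b library too.

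Both polyubiquitin genes, whose products are cut into ubiquitin for protein turnover, had higher means in gf14h-1. LOC100832168 (UBQ4) stood at 702.7, 574.1 and 748.4 CPM in wild type and at 1134.4, 1239.5 and 1575.9 CPM in gf14h-1. LOC100841406 (UBQ10) stood at 1064.4, 801.6 and 1112.4 CPM in wild type and at 1414.9, 1605.7 and 2209.1 CPM in gf14h-1. Every mutant library exceeded every wild type library in both, and replicate 3 was the highest. Their edgeR adjusted p were 0.183 and 0.366, and DESeq2 gave 9.9e-05 and 0.0176. The log2 differences of hdac19-2b from wild type were 0.16 for UBQ4 and 0.06 for UBQ10. Direct tests of gf14h-1 against hdac19-2b did not pass for either gene (edgeR adjusted p 0.391 and 0.414). Repeated ubiquitin units are nearly identical between such genes, so the division of reads between them is uncertain.

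None of the chloroplast genes passed. Of 28 tested genes for chloroplast ribosomal proteins, polymerase and maturase, 8 had a positive log2 fold change (28.6%, beside 49.6% of all features), and the median was −0.33. Of 38 tested chloroplast photosynthesis genes 8 were positive (21.1%), with a median of −0.21. The ribosomal protein gene rpl14 stood at 97.0, 78.7 and 76.1 CPM in wild type and at 37.6, 58.9 and 37.4 CPM in gf14h-1, without overlap (edgeR adjusted p 0.252, DESeq2 0.017). The gene rps19 had 4.43, 6.07 and 5.24 CPM in wild type, against 1.99, 2.10 and 0.706 CPM in gf14h-1. Its value in gf14h-1 replicate 3 rests on 2 counts. In hdac19-2b the log2 differences from wild type were −0.16 for rpl14 and 0.33 for rps19. The direct tests between the mutants did not pass for these genes (edgeR adjusted p 0.404 and 0.297). Both rpl2 features had edgeR adjusted p of 0.519, and ndhH, for a subunit of the NADH dehydrogenase-like complex, had 0.573. Genes such as rps19 and rpl2 lie in the inverted repeat, so reads of their copies cannot be told apart. Summed over the 28 genes of the first list, gf14h-1 libraries held 793.5, 1017.3 and 419.8 CPM, and wild type libraries 656.4, 940.8 and 1089.1 CPM. Replicate 3 was thus the lowest, and the groups overlapped. The 44 photosynthesis genes summed to 3781.3, 6878.4 and 4376.6 CPM in gf14h-1 and to 3304.6, 6085.4 and 7798.5 CPM in wild type, which also overlapped. Poly(A) selection, which the labels state, passes chloroplast RNA only in part, and the share of that step in these values was not tested.

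Other lists showed no call. None of the 8 tested NAC factors, all of the SWN group, had an unadjusted p under 0.05 (median log2 fold change 0.26). Nor did any of the 23 tested MADS-box features (median 0.01), a family that includes regulators of flowering and floral organs. The expansin-B6-like gene LOC100843684, of a family that loosens cell walls, stood at 10.6, 0.739 and 1.48 CPM in wild type and at 1.34, 0.197 and 0.353 CPM in gf14h-1. These groups overlapped, and wild type replicate 1 was the highest. As markers of green shoot, chloroplast genes were read in all 9 libraries, with rbcL at 2388.0 to 6305.7 CPM. The markers psbD and psbA stood at 92.3 to 328.9 and 54.9 to 141.9 CPM. The markers psaB, psaA and atpB stood at 11.6 to 37.5, 9.88 to 32.0 and 3.04 to 9.38 CPM. The 31 MADS-box features summed to 509.4, 604.8 and 644.9 CPM in gf14h-1 and 463.7 to 558.6 CPM in wild type. A sum over the whole family does not single out floral tissue, so its presence was not read from it. Of the 31, those at 0 counts numbered 10, 5 and 4 in the gf14h-1 replicates and 1 to 3 in wild type.

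**Figure D5:**
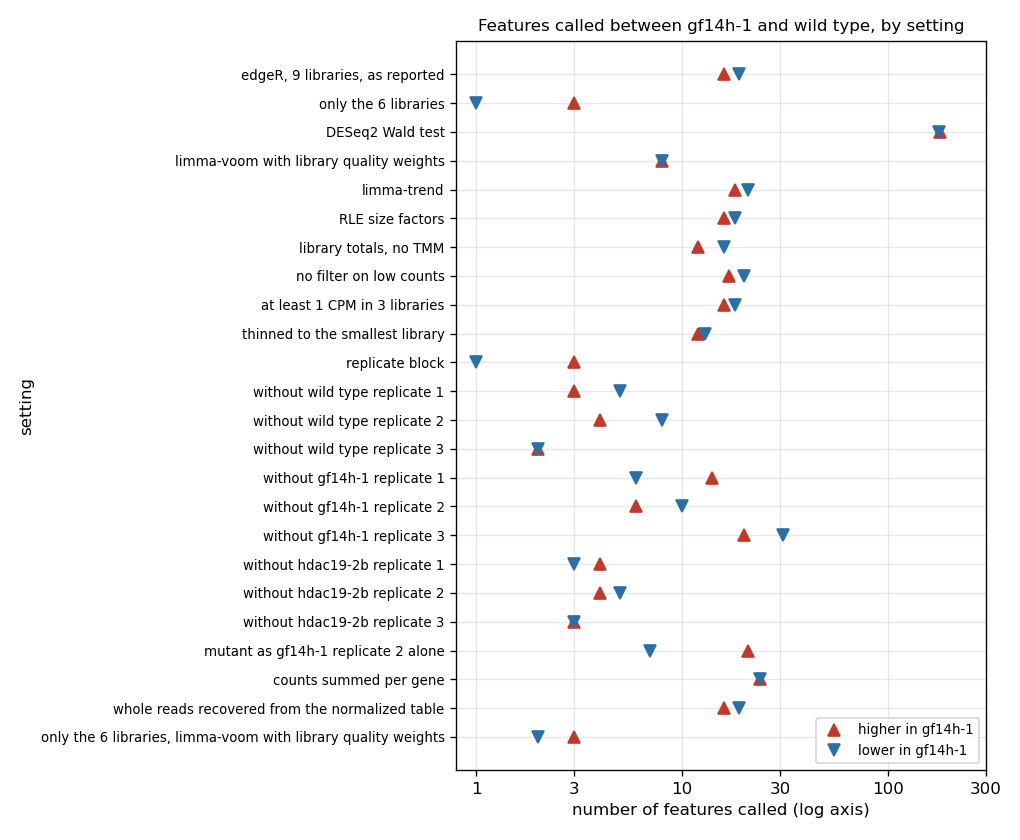
Number of features called higher (red, upward triangles) and lower (blue, downward triangles) in gf14h-1 on a log axis, for the reported fit and 23 alternative settings. The reported fit calls 16 and 19, DESeq2 calls 179 and 178, and the fit of the 6 libraries alone calls 3 and 1.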

How the data were processed

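Poly(A)-selected RNA of 9 shoot libraries, 3 per genotype, was sequenced, per the labels. Values in the count table of the authors are estimated counts of features, named raw counts in the labels, with 69.1% to 83.2% of values whole to within 0.001. These were rounded for the tests, which had been planned for raw counts. A normalized signal table deposited by the authors holds the rounded counts divided by 1 size factor per library, and lacks 153 features. Of its values 99.9% to 100.0% gave whole reads to within 0.1, and the count test on these, an added alternative, called 35 features. Tools named in the submitters' processing notes are DESeq2, HISAT2, FastQC 0.11.9 and Partek. Not given in the sources used here are the counting program, its handling of strand and the division of reads shared between features.

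Here edgeR 4.0.16 in R 4.3.3 was fitted to all 9 libraries with genotype as the only term, TMM scaling and its default filter. The quasi-likelihood test compared gf14h-1 with wild type, with Benjamini-Hochberg adjustment at 0.05. Levels are TMM-scaled CPM, not scaled by length, so they are not compared between genes. SE is the absolute log2 fold change over the square root of F. DESeq2 1.42.0, limma 3.58.1, other scalings and filters, thinning, omitted libraries, a replicate block and sums per gene were alternatives. The code was tested on simulated data. Folds against a group at 0 use 3 counts over its summed libraries, and intervals cover counting error only. Library totals were 3302835 to 36632994 counts. Every pair of replicates differed by more than sampling noise (a chi-square of 18.0 or more for each degree of freedom). The series text calls the replicates biological.

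Names came from the deposited annotation and RefSeq genes of Brachypodium_distachyon_v3.0, where 98.5% of starts matched. Coordinates are 1-based. Named genes were all calls (up to 40), all features with a name or description at an unadjusted p under 0.05, and the 5 highest and 5 lowest features of gf14h-1 replicates 1 and 3 against the median of the other 8 libraries (at least 10 CPM), of which a few are given. The members and lists were chosen with earlier results of these data known. Lists by protein motif were not used here, and the list of flowering-time genes had no member.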

Additional observations from a re-analysis of the deposited data

Results flagged for a closer look

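At 3 of the called features gf14h-1 also differed from hdac19-2b in a direct edgeR quasi-likelihood test. The log2 difference of gf14h-1 from hdac19-2b was −10.82 at LOC100831965, −2.58 at LOC100826926 and −1.96 at LOC100821161. In each, all 3 gf14h-1 libraries were below all 6 libraries of the other genotypes. At LOC100831965 every gf14h-1 library had 0 counts, so the size of that difference depends on the prior count. Over all tested features the direct test called 4.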

How the results depend on the processing

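The count of 35 calls (16 higher, 19 lower) changed with the settings. It was 4 (3 and 1) with the 6 libraries alone, 357 (179 and 178) with DESeq2, 16 (8 and 8) with limma-voom and library quality weights, and 4 (3 and 1) with a replicate block. It was 28 with gf14h-1 replicate 2 alone, of which 21 were higher and 7 lower. Libraries left out one at a time gave 4 to 51 calls, 2 to 20 higher and 2 to 31 lower. Limma-voom with quality weights on the 6 libraries, chosen after seeing the data, called 5 (3 and 2). The labels do not pair the samples by replicate number. Deviations at the same number had correlations of −0.136, −0.0111 and −0.0848 between wild type and gf14h-1. With 3 libraries in each group these values cannot show that no pairing exists. The loss of calls with the block is therefore given without a reading. Counts were 25 to 48 with thinning, limma-trend, RLE size factors, library totals, other filters and sums per gene, and 35 with recovered reads, also chosen after seeing the data. The spread within wild type, gf14h-1 and hdac19-2b was 0.432, 1.07 and 0.455 over 23898 features, and 0.231, 0.531 and 0.216 after thinning over the 19312 features that then passed the filter. Over those 19312 it was 0.247, 0.719 and 0.241 at full depth. No log2 fold change of the 49 called or named features reversed its sign in 1123 recomputed values, while 384 no longer passed the threshold and 7, all with DESeq2, newly did. These features were chosen on the same counts and the refits share libraries, so the choice itself favoured a constant sign. In gf14h-1 replicate 3 the depth limits what can be read below 1.06 TMM-scaled CPM, the level of 3 counts (0.908 CPM by the library total).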
